A study of Mus musculus with 18 samples.

Results

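Plasma cells are the antibody-secreting end stage of the B lineage, and some of them live for long periods in the bone marrow. They fold and export large amounts of immunoglobulin through the endoplasmic reticulum (ER), and they carry a set of surface receptors through which marrow signals keep them alive. The genes described here are 8 of that programme. Sdc1, Tnfrsf17 and Slamf7 encode surface receptors, Fcrla an Fc receptor-like protein inside B cells, Mzb1 and Derl3 proteins of the ER, and Xbp1 and Pou2af1 transcriptional regulators. They were followed in cells with 1000 or more UMIs (unique molecular identifiers, each standing for 1 captured RNA molecule) of Igkc, the constant region of the kappa light chain, and in all other cells of the same library. The 8 genes were 8 of 17757 genes in the count table, and all 8 were present in it. Cells at or above the threshold, called Igkc-high here, numbered 124 of 8436.

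The cells were lineage-negative, cKit-positive (LK) bone marrow cells of female C57BL/6 mice with no further treatment or allele named, a fraction rich in haematopoietic stem and progenitor cells. Mice 1, 3 and 5 were 8 weeks old and mice 2, 4 and 6 were 72 weeks old. Each mouse gave 1 short-read library, counted at the 3′ end of the RNA, and the same cDNA was also sequenced as long reads on Sequel and Sequel II instruments. Libraries held 681 to 1919 cells and 3628043 to 17585424 UMIs. Lineage depletion is meant to remove mature blood cells, and the cells described here are those that were present in the sorted fraction. Fewer such cells cannot be told apart from less RNA per cell wherever all cells of a mouse were summed.

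Of the 124 Igkc-high cells, 13 came from mouse 1, 90 from mouse 2, 20 from mouse 4 and 1 from mouse 6. Mice 3 and 5 had none. Below the threshold no cell held more than 189 Igkc UMIs, and no cell of mice 3 and 5 held more than 4. The 4 cells just above it, with 1156 to 1991 Igkc UMIs, held 39 Mzb1, 12 Xbp1 and 7 Pou2af1 UMIs between them. Immunoglobulin genes took 58.0 to 60.0% of all UMIs of the Igkc-high cells in mice 1, 2 and 4. Levels are therefore given as CPM, counts scaled to a common total of UMIs that were not immunoglobulin (counts per 1e6), after 61 immunoglobulin genes were left out. The table was compiled from 6 libraries that shared 42 barcodes, and 1 Igkc-high cell carried a shared barcode.

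A few short sequences show where the programme can be read in DNA. The first is the segment that the stress sensor IRE1 removes from Xbp1 mRNA in the cytoplasm, which shifts the reading frame and gives the active transcription factor. It is shown because a 3′-end count or a gene-level count does not tell the cut from the uncut mRNA. It lies in exon 4 of 5 of the longest reference transcript, at chr11:5524279-5524304 on the plus strand of GRCm38. It was read from the GENCODE M21 transcript as the stretch between a pair of CNGCAG sites 26 bases apart, cut after the third base of each, with the 26 removed bases in capitals and 2 bases on each side.
Xbp1 segment: cgCAGCACTCAGACTATGTGCACCTCTGca
Of 12 Xbp1 transcript models in the deposited annotation, 1 has a gap of 26 bases here, a reference model whose gap (chr11:5524270-5524295) starts 9 bases before this segment, and none of the 10 models that carry a mark of the long-read pipeline TALON has one.

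The other 2 sequences are matches to elements of the unfolded protein response in the promoter windows of RefSeq (GRCm38.p6, 250 bases before to 50 after a gene's start, 32851 windows in all). Windows were found for 7 of the 8 genes. Both strands were searched, capitals mark the match, and a match is a description of letters only. The UPR element TGACGTGG, which XBP1 can bind, matched 1 of the 7 windows, that of Pou2af1 at chr9:51213623-51213642, and 0.676% of all windows.
Pou2af1 window: atgtgaTGACGTGGcccctc
The ER stress element, CCAAT and CCACG a fixed distance apart, matched the window of Derl3 at chr10:75893237-75893265, on the reverse strand, and 0.119% of all windows.
Derl3 window: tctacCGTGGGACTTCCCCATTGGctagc
The 5-letter core CCACG, which is part of both matches, occurred in the windows of Derl3, Pou2af1 and Sdc1 and in 32.8% of all windows. The octamer ATTTGCAT, at which the protein of Pou2af1 joins OCT factors, occurred in none of the 7 windows and in 1.74% of all windows.

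The surface receptors lay between 206 and 501 CPM in the Igkc-high cells of mice 1, 2 and 4 and at 7.89 CPM or less in other cells. Sdc1, the heparan sulphate proteoglycan CD138 by which plasma cells are commonly sorted, lies at chr12:8771323-8793715. It had 442, 501 and 495 CPM in the Igkc-high cells of mice 1, 2 and 4. In the other cells it had 7.89, 5.23, 2.48, 2.31, 4.15 and 3.59 CPM in mice 1 to 6. All 3 Igkc-high values lay above all 6 others, and among the other cells the order of mice was not that of their Igkc-high cells. Tnfrsf17, at chr16:11313812-11320074, encodes BCMA, a receptor for BAFF and APRIL that keeps marrow plasma cells alive. Its level was 316, 389 and 206 CPM in the Igkc-high cells of mice 1, 2 and 4, against 0.168, 0.991 and 0.346 CPM in their other cells. The other cells of mouse 3 held 3 UMIs of it, and those of mice 5 and 6 held 0. Slamf7, a self-binding receptor of the SLAM family found on plasma cells, NK cells and some myeloid cells, stood at 337, 364 and 278 CPM in Igkc-high cells of the same mice. Their other cells had 0.924, 2.88 and 0.0576 CPM, the last of them a single UMI, and no Slamf7 UMI was seen in mice 3, 5 and 6. Fcrla, which binds immunoglobulin within the cell, lies like Slamf7 on chromosome 1. It was even across the Igkc-high cells, at 316, 330 and 340 CPM, and the other cells held 5, 15 and 0 UMIs in mice 1, 2 and 4 and 0 in the remaining mice.

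Both ER genes were far higher in Igkc-high cells. Mzb1, on chromosome 18, encodes an ER protein that assists the folding of immunoglobulin and works with the chaperone GRP94. It reached 3033, 2816 and 3534 CPM in the Igkc-high cells of mice 1, 2 and 4. Other cells of these mice held 10, 63 and 4 UMIs of it, or 0.840, 5.68 and 0.231 CPM, and those of mice 3, 5 and 6 held 1, 0 and 1 UMI. The fold within a mouse therefore ran from 496 in mouse 2 (95% counting interval 384 to 651) to 15327 in mouse 4 (5932 to 56574), and mouse 2, with the most Igkc-high cells, had the highest level in its other cells. Derl3, at chr10:75893413-75921589, encodes a membrane protein through which misfolded proteins leave the ER for degradation. Its Igkc-high values were 442, 568 and 742 CPM, and its values in the other cells of mice 1 to 6 stayed between 0.830 and 2.97 CPM. Unlike Mzb1, Derl3 was thus present at a low level in every library, with or without Igkc-high cells.

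Xbp1, which drives the expansion of the secretory apparatus, was the only one of the 8 genes that was also abundant outside the Igkc-high cells. It measured 2169, 2130 and 2524 CPM in the Igkc-high cells of mice 1, 2 and 4, and 64.0 to 114 CPM in the other cells of the 6 mice. Pou2af1, the B-lineage coactivator OBF-1, at chr9:51213708-51240079, lay at the other end. Its Igkc-high levels were 358, 462 and 237 CPM. Among 8312 other cells only 5 Pou2af1 UMIs were counted, 4 of them in mouse 2 and 1 in mouse 4. The single Igkc-high cell of mouse 6 held 2 Mzb1, 4 Xbp1 and 1 UMI each of Derl3, Sdc1 and Tnfrsf17.

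**Figure D1:**
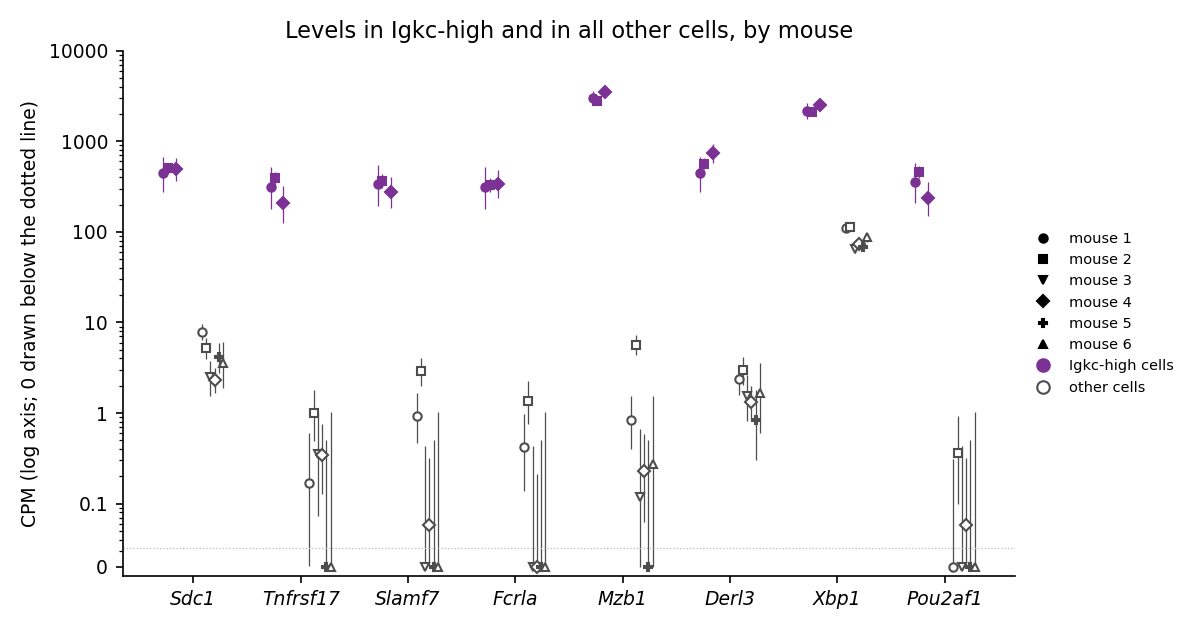
Level of each gene in CPM of UMIs that were not immunoglobulin (log axis, values of 0 drawn below the dotted line) in the Igkc-high cells of mice 1, 2 and 4 (filled) and the other cells of all 6 mice (open), with 95% Poisson intervals. Every Igkc-high value lies above every value of the other cells of the same gene, and Xbp1 alone is at 64.0 CPM or more in the other cells of every mouse.

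With 2 sums per mouse and the mouse as a block, all 8 genes were higher in Igkc-high than in other cells of mice 1, 2 and 4. Of 11000 genes tested with edgeR's quasi-likelihood test, 1749 (15.9%) passed an adjusted p of 0.05, 801 of them (7.28%) higher and 948 (8.62%) lower in Igkc-high cells. The study used the same cells to define a cluster whose marker list these genes head, except Xbp1, so their direction is not independent evidence. Mzb1, Pou2af1, Tnfrsf17, Fcrla and Slamf7, with few UMIs in other cells, also passed the filter on low counts through their Igkc-high sums. For these genes a call as higher was thus all but fixed by entry to the test. Among the 8, the largest log2 fold changes were those of Pou2af1, 11.10 ± 0.45 (SE), and Mzb1, 10.76 ± 0.35, whose adjusted p of 3.39e-195 in edgeR was the smallest of all genes. Fcrla (9.14 ± 0.38), Tnfrsf17 (9.09 ± 0.40), Slamf7 (8.06 ± 0.36) and Derl3 (7.98 ± 0.32) followed. Sdc1 rose by 6.61 ± 0.30 and Xbp1 by 4.41 ± 0.26, which is a fold of 21.3, and Xbp1 ranked 107 by fold change. The median log2 fold change was 8.58 over the 8 genes and -0.23 over all genes tested. The SEs and p-values rest on a spread that edgeR shares across genes, not on the 3 mice of a gene alone. Within mice 1, 2 and 4 the log2 fold of Mzb1 was 11.8, 8.95 and 13.9, farther apart than its SE of 0.35. Genes with almost no UMIs in the other cells have fold changes that hang on a few UMIs. Without mouse 2 the fold of Mzb1 was 5503 instead of 1730, that of Pou2af1 4654 instead of 2192, that of Fcrla 1489 instead of 566 and that of Slamf7 611 instead of 266, and without mouse 4 those of Mzb1, Fcrla and Slamf7 were 959, 325 and 168. Against a floor of 3 UMIs per library, Pou2af1 was at least 1421-fold higher in mouse 1 and Fcrla at least 1966-fold higher in mouse 4. The fit without the mouse as a block called 1707 genes and the same 8 of the programme.

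Within single cells the genes were found together. Every Igkc-high cell had a UMI of at least 3 of the 8 genes, with a median of 7, and 22 of the 124 cells had all 8. In the other cells the median was 0, 57.0% had none of the 8 and the most was 3, in 9 cells. Leaving out Xbp1, 3 or more genes were found in 121 of 124 Igkc-high cells and in 0 of 8312 others. A single gene other than Xbp1 was more common, and 471 of the other cells (5.67%) had at least 1. By gene, 99.2% of Igkc-high cells held Mzb1 and 99.2% Xbp1, 83.9% Derl3, 83.1% Sdc1, 72.6% Slamf7, 71.8% Pou2af1, 66.9% Tnfrsf17 and 58.9% Fcrla. Erythroid-like cells, which should lack the programme, gave 0.621% for Mzb1 and 1.51% for Sdc1 at a median of 7269.5 UMIs. For Xbp1, which was also abundant outside the Igkc-high cells, they gave 25.1%, which is no background level. The median Igkc-high cell of mice 1, 2 and 4 had 2995 to 3846 UMIs that were not immunoglobulin, fewer than the 5966.5 to 8453 of the other cells. With every cell thinned to 2000 such UMIs, Mzb1 was found in 90.0 to 100% of the Igkc-high cells of those mice and in 0 to 1.24% of the other cells of any mouse. Xbp1 was found in 92.3 to 97.8% against 12.4 to 19.3%, and Pou2af1 in 40.0 to 61.5% against 0 to 0.13%. In this step 1 Igkc-high cell of mouse 2 and 0 to 60 other cells per mouse were too shallow and were left out.

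**Figure D2:**
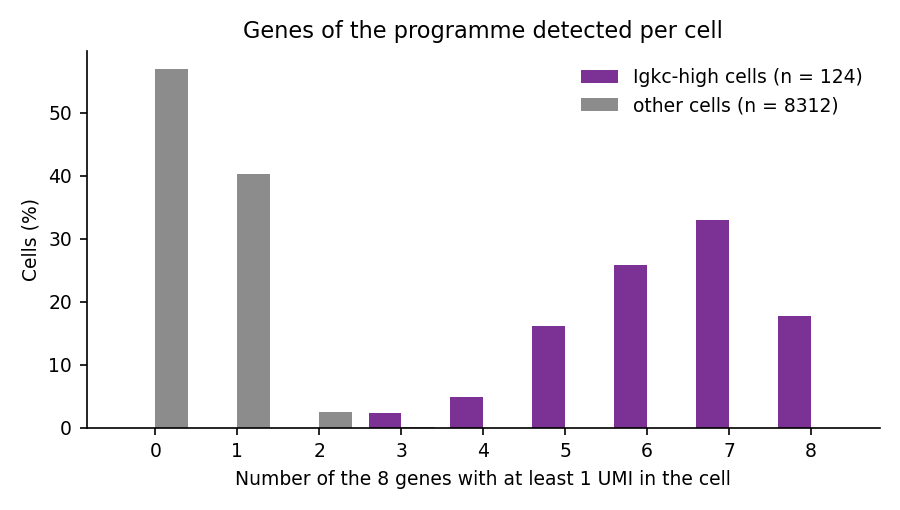
Percentage of cells by the number of the 8 genes with at least 1 UMI, for Igkc-high cells (purple) and all other cells (grey). The 2 distributions meet only at 3 genes, which 2.42% of Igkc-high and 0.108% of other cells reached.

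Cells were also grouped without the 8 genes, the ER genes and the immunoglobulin genes. A single cluster of 114 cells then held Igkc-high cells only and was named plasma cell-like from its markers. That marker list includes the 8 genes, and Mzb1 was among the leading genes of the cluster, so the name is not independent of them. The other 10 Igkc-high cells fell into clusters of 7 other classes. Those 10 cells had a median of 14170.5 UMIs, against 9135.5 in the cluster. Their levels were 797 against 3548 CPM for Mzb1, 417 against 2689 CPM for Xbp1 and 102 against 599 CPM for Sdc1, and they held a median of 5.5 of the 8 genes against 7. No doublet caller was run, and whether these barcodes held more than 1 cell was not tested. With the cells of the cluster alone, the log2 fold change was 6.84 for Sdc1 and 4.64 for Xbp1, and all 8 genes were called.

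Most genes of the secretory pathway rose together with the 8. Of 11 listed regulators and secretion genes of plasma cells 9 could be tested and 9 rose, among them Jchain, the chain that joins IgA and IgM into polymers (log2 fold change 11.35 ± 0.45), and Txndc5, a disulphide isomerase of the ER (5.27 ± 0.27). Prdm1, which encodes BLIMP-1, the repressor that fixes plasma cell fate, rose by 8.29 ± 0.66 on the same scale and was named after its value was seen. Of 27 ER chaperone and degradation genes 22 rose and 0 fell (median log2 fold change 2.04), including Hsp90b1, the chaperone GRP94 (2.28 ± 0.24), and Hspa5, the chaperone BiP (1.15 ± 0.23). Calr, the lectin chaperone calreticulin, had 1207 ± 128 against 1268 ± 215 CPM, a log2 fold change of -0.18 ± 0.24 with an adjusted p of 0.691 in edgeR. Of 27 translocation and N-glycosylation genes 17 rose and 0 fell (median 1.05). Sec11c, a signal peptidase subunit, rose by 2.64 ± 0.24 and Ssr4, a subunit at the translocon, by 1.84 ± 0.24, while Sec61b, part of the protein channel itself, had 0.35 ± 0.23 (adjusted p in edgeR 0.345). Of 7 tested genes of the stress sensors and the PERK arm 5 rose (median 1.54), with Asns at 1.54 ± 0.32 and Atf4 at 0.79 ± 0.29. A list of partners and family members of the 8 genes was less uniform. Tnfrsf13c, the BAFF receptor, rose by 5.23 ± 0.39 and Sdc4, another syndecan, by 5.31 ± 0.83, whereas Pou2f2 and Pou2f1, the OCT factors that the protein of Pou2af1 joins, had 0.87 ± 0.42 and 0.70 ± 0.64 and did not pass. In all 3 of 7 tested genes of this list rose, and the other 4 were not called.

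Markers of other cells moved in the same comparison, and their part in it was not tested. Of 8 tested B cell genes 6 rose, with Cd79a, a chain of the B cell receptor, at 873 ± 95.6 against 0.454 ± 0.476 CPM (SD, n = 3 mice), and the summed level of the list ran from 1638 to 2127 CPM in Igkc-high cells of mice 1, 2 and 4 and from 45.1 to 78.8 CPM in other cells. Among genes used early in the B lineage, Vpreb3 rose by 8.86 ± 0.53 on the log2 scale, Blnk by 6.64 ± 0.40 and Ebf1, named after its value was seen, by 5.50 ± 0.88. Vpreb1, Igll1 and Rag2 were at 0 in Igkc-high cells, and so were Cd22, Cr2 and Spib. These zeros do not show absence, as the floor of 3 UMIs stood at 63.2, 8.40 and 30.9 CPM in the Igkc-high cells of mice 1, 2 and 4. Vpreb1 was not called (-7.14 ± 5.06, adjusted p in edgeR 0.384). Monocyte progenitor markers were 9245 to 10712 against 470 to 1269 CPM in sum, with 5 of 10 genes higher and 2 lower, mostly through Slpi (7402 ± 1122 CPM). Macrophage and dendritic cell markers were 6583 to 10551 against 68.3 to 1437 CPM, of which Cd74, the invariant chain that B cells also make, gave 8187 ± 1921 CPM. Of the 15 listed genes 7, C1qa, C1qc, Adgre1, Mrc1, Vcam1, Clec9a and Xcr1, were at 0, with the same floors. The PreGM granulocyte-monocyte markers were lower in 8 of 9 genes but not absent, with Mpo at 961 ± 455 against 4260 ± 1407 CPM. HSC markers were 1875 to 2717 against 587 to 992 CPM in sum, with Ly6a, which encodes Sca-1, at 1546 ± 161 against 20.2 ± 2.69 CPM, and 2 of the 8 tested rose and 2 fell. Of 5 tested plasmacytoid dendritic cell genes 2 rose, Tcf4 by 2.38 ± 0.30 and Cox6a2 by 3.75 ± 0.39. The other 3 were not called, among them Lair1 (-1.46 ± 0.66) and Runx2 (-0.15 ± 0.70). Siglech, Cd300c and Pacsin1 of this list were at 0 in Igkc-high cells, with the same floors. Of 11 tested mast cell or basophil genes 8 fell, of 9 neutrophil genes 8 fell, and of 10 mitosis genes 8 fell, and in these 3 lists 0 rose. Kit, on which the fraction was sorted, had 35.8 ± 13.3 against 45.8 ± 4.29 CPM (adjusted p in edgeR 0.706), and Cd34, a marker of many progenitors, fell by 2.18 ± 0.34 on the log2 scale.

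The genes whose level most followed the mean of the 8 were sought over 74 sums of a cell class and a mouse, 3 of them Igkc-high. As these 3 sums set the correlation, it is given as a description. The highest Pearson correlation of log2(CPM + 1) was 0.962, for Gm30211 (160 UMIs in Igkc-high and 1 in other cells) and Wnt10a (45 and 1), followed by Prlr, Cacna1h, Kcnmb4os2, Ms4a1, Slamf9, Mef2b, Cacna1s and Cacna1d. Of the 8 themselves Pou2af1 (0.966) and Tnfrsf17 (0.952) lay closest to the mean, and Sdc1 (0.803) and Xbp1 (0.847), the genes with most UMIs in other cells, lay farthest from it.

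Outside the Igkc-high cells the 8 genes differed in how many UMIs they had beside Igkc. Igkc was found throughout mouse 2, where every cell had at least 1 UMI. The count of each gene in other cells was set beside the count at which it would stand in the same ratio to Igkc as in the Igkc-high cells of that mouse. Since Igkc chose the cells, these values are a description with no test, and the part of free RNA in the counts was not tested. Mzb1 had 10, 63 and 4 UMIs in the other cells of mice 1, 2 and 4, where the ratio gives 6.56, 58.8 and 9.74. Jchain had 231, 2067 and 189 UMIs against 232, 1769 and 252. Pou2af1 had 0, 4 and 1 UMIs against 0.775, 9.65 and 0.653, counts too low to place it. Tnfrsf17 had 2, 11 and 6 UMIs against 0.684, 8.13 and 0.568.

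Fcrla and Slamf7 had more UMIs than the ratio gives in mice 1 and 2, and about as few in mouse 4. Fcrla had 5 UMIs against 0.684 in mouse 1, 15 against 6.90 in mouse 2 and 0 against 0.937 in mouse 4, and Slamf7 had 11 against 0.729, 32 against 7.60 and 1 against 0.766. Derl3, Sdc1 and Xbp1 had more in all 3 mice. In mouse 1 the observed count was 29.2 times that from the ratio for Derl3, 98.2 times for Sdc1 and 282 times for Xbp1, and in mouse 2, where the count from the ratio is largest, it was 2.78, 5.54 and 28.4 times. The share of a gene's UMIs that lay in Igkc-high cells varied with the mouse. In mice 1, 2 and 4 it was 93.5, 94.1 and 98.8% for Mzb1, 100, 97.6 and 95.8% for Pou2af1, and 75.0, 88.7 and 100% for Fcrla. For Sdc1 it was 18.3, 75.5 and 54.5%, for Derl3 42.9, 86.0 and 75.8%, and for Xbp1 7.22, 37.6 and 16.0%. Mouse 2, with the most Igkc-high cells, had the highest share of the last 3 genes, and Xbp1 had the lowest share of the 8 in each of these mice.

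**Figure D3:**
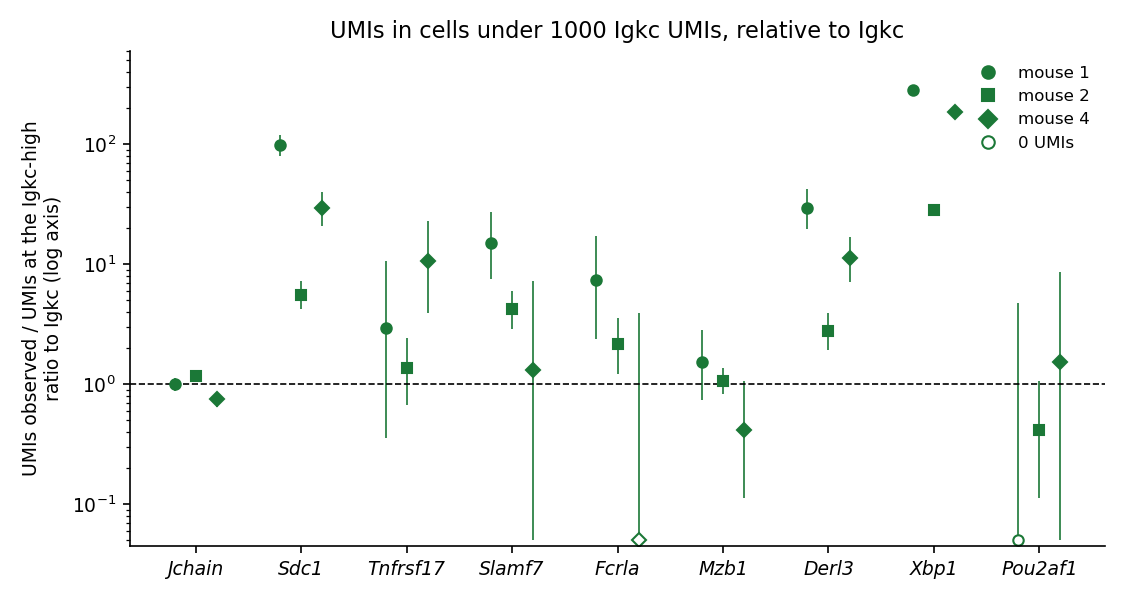
UMIs counted in cells under 1000 Igkc UMIs, divided by the number that the ratio to Igkc in the Igkc-high cells of the same mouse gives (log axis, 95% Poisson intervals of the observed count, open symbols for 0 UMIs). Over mice 1, 2 and 4 the quotient ran from 0.411 to 1.52 for Mzb1, from 0 to 1.53 for Pou2af1 and from 0.749 to 1.17 for Jchain, whereas for Derl3, Sdc1 and Xbp1 it was at least 2.78, 5.54 and 28.4.

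By class, the UMIs of other cells were spread differently from gene to gene. Classes were named from markers and formed without the 8 genes, so levels by class are a description, over mice with at least 10 cells of the class. Xbp1 was found in all 13 groups. It was highest in neutrophil-like cells at 164 ± 38.8 CPM (SD, n = 6 mice), followed by mast cell or basophil-like cells at 130 ± 50.7, eosinophil-like cells at 115 ± 31.4 (n = 4), PreGM-like cells at 111 ± 14.9 and HSC-like cells at 105 ± 37.5 (n = 5). Neighbours among these 5 classes differed by less than their SD. At its lower end stood erythroid-like cells at 36.9 ± 12.3 CPM, below the lowest mouse of the neutrophil-like class, which had 133 CPM. Even the neutrophil-like level was far under the 2274 ± 217 CPM of Igkc-high cells.

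Sdc1 was concentrated in 2 classes. LMPP/MPP-like cells, the lymphoid-primed multipotent progenitors, had 12.3 ± 11.3 CPM and monocyte progenitor-like cells 11.9 ± 4.35 CPM, and the means of all other classes were 3.78 CPM or less. With a coarser grouping of the cells PreGM-like cells joined them, at 9.95 instead of 2.13 CPM. In monocyte progenitor-like cells 100 UMIs lay in 86 of 942 cells (9.13%), and each of the 6 mice had at least 6.00 CPM, while the LMPP/MPP-like level ran from 0 to 33.4 CPM between mice. No Sdc1 UMI was found in 462 neutrophil-like or 257 HSC-like cells, which allows shares of cells with a UMI of up to 0.649% and 1.17%. Slamf7 lay mostly in macrophage and dendritic cell-like cells, where 30 of its 44 UMIs outside Igkc-high cells were found. That class had 71.3 ± 13.1 CPM (n = 2 mice, 1 and 2) and 25 of its 82 cells held a UMI, against a mean of at most 1.98 CPM in any other class. The same class had 7 of the 20 Fcrla UMIs, at 14.9 ± 11.4 CPM, and 0 of Derl3, Pou2af1 and Tnfrsf17.

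Derl3 was spread thinly. Its mean was highest in eosinophil-like cells at 4.16 ± 4.97 CPM and in mast cell or basophil-like cells at 3.00 ± 4.27 CPM, with SDs above the means, and 27 of its 109 UMIs outside Igkc-high cells lay in the latter. Mzb1 reached 5.11 ± 10.5 CPM in HSC-like cells, where 5 UMIs in 4 cells gave the whole value, and was at 3.51 CPM or less in every other class. Pou2af1, with 5 UMIs, and Tnfrsf17, with 22, reached at most 0.280 and 0.591 CPM in any class.

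**Figure D4:**
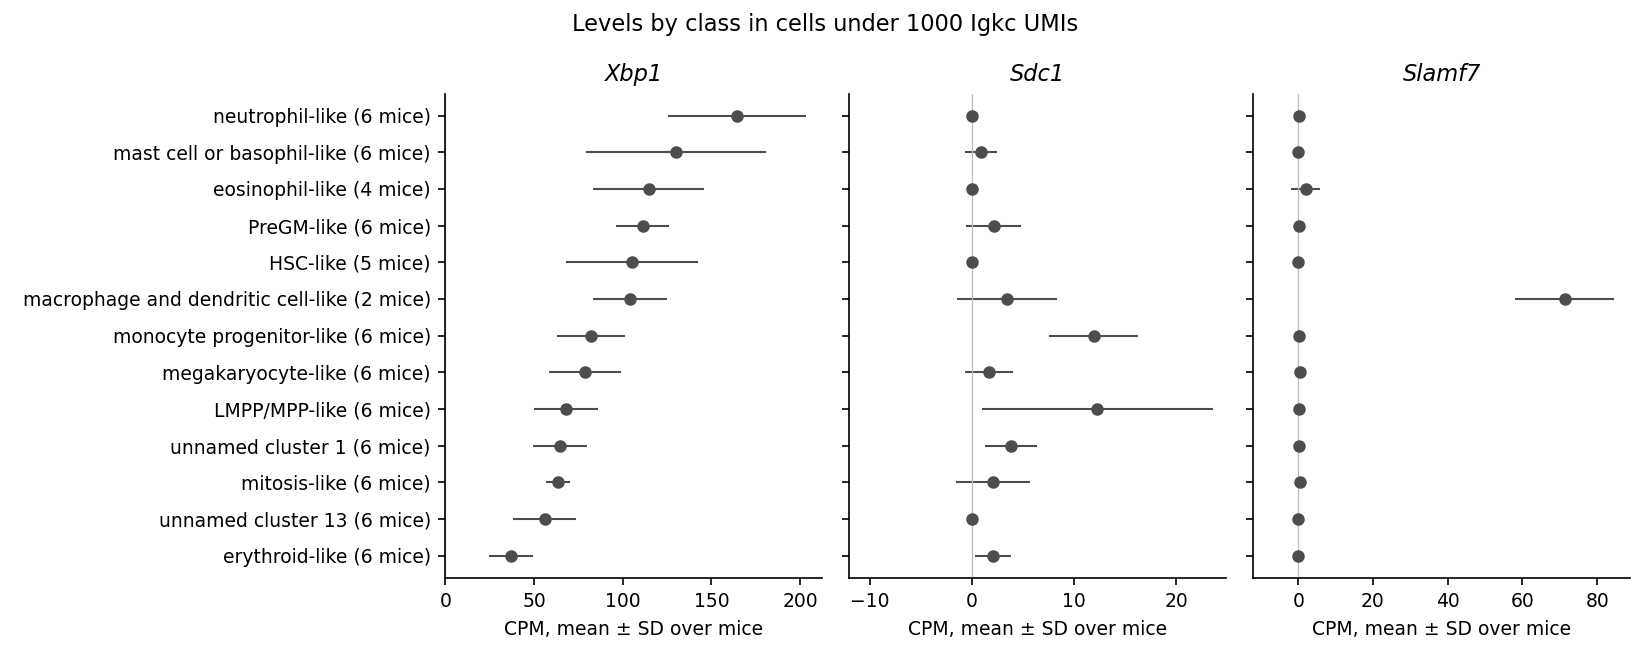
Level in CPM (mean and SD over mice) of Xbp1, Sdc1 and Slamf7 by class among cells under 1000 Igkc UMIs, with the number of mice in brackets. Xbp1 runs from 36.9 CPM in erythroid-like to 164 CPM in neutrophil-like cells, Sdc1 stands out in LMPP/MPP-like and monocyte progenitor-like cells, and Slamf7 in macrophage and dendritic cell-like cells.

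The study compared young with aged mice. Igkc-high cells made up 0.784% (exact 95% binomial interval 0.418 to 1.34%), 0 and 0% of the LK cells of the young mice 1, 3 and 5, and 5.33% (4.31 to 6.51%), 1.04% (0.638 to 1.61%) and 0.147% (0.00372 to 0.815%) of the aged mice 2, 4 and 6. For the zeros of mice 3 and 5 the same exact intervals reach up to 0.240% and 0.385%. The groups overlapped, since mouse 1 was above mouse 6, and the mean of the aged mice was 1.91 percentage points above the 0.261 ± 0.452% (SD, n = 3) of the young, with p = 0.2 in a two-sided exact permutation test, in which 3 against 3 mice cannot go below 0.1. Without mouse 2 the aged mean was 0.595%.

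Over all LK cells, Mzb1 took the order of these shares. It had 12.9, 0.118 and 0 CPM in mice 1, 3 and 5 and 93.3, 19.9 and 0.828 CPM in mice 2, 4 and 6. Every gene had a higher mean in aged mice, for Xbp1 87.8 to 177 against 64.0 to 119 CPM, and for every gene the age groups overlapped. None of the 8 was called, nor was any of 12277 genes tested (0%) in edgeR, where 370 were under 0.05 before adjustment. DESeq2 called 12 genes, none of them among the 8. Log2 fold changes of aged over young ran from 0.41 ± 0.32 for Xbp1 to 3.22 ± 1.44 for Pou2af1, with unadjusted p in edgeR of 0.0369 for Derl3, 0.0477 for Tnfrsf17 and more for the others. Mouse 2 set the size of these differences: without it the value was 1.32 ± 1.33 for Mzb1, 0.02 ± 0.25 for Xbp1 and -0.30 ± 0.51 for Sdc1.

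Among cells under 1000 Igkc UMIs, only Derl3, Sdc1 and Xbp1 passed the filter on low counts, and their log2 fold changes were 0.21 ± 0.47, -0.50 ± 0.44 and 0.10 ± 0.23. None of them, and none of 12233 genes (0%), was called in edgeR, where 330 were under 0.05 before adjustment. With DESeq2 there were 9 calls, again none of the 8. Of these cells 7.84, 2.15 and 3.24% had a UMI of a gene of the 8 other than Xbp1 in young mice 1, 3 and 5, and 11.9, 3.58 and 2.94% in aged mice 2, 4 and 6. The difference of 1.73 percentage points had p = 0.6 in the exact permutation test. Mice 1 and 2, of different ages, had the highest shares, and after thinning to 2000 UMIs they had 2.80 and 4.36% against 0.691 to 1.27% in the others.

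**Figure D5:**
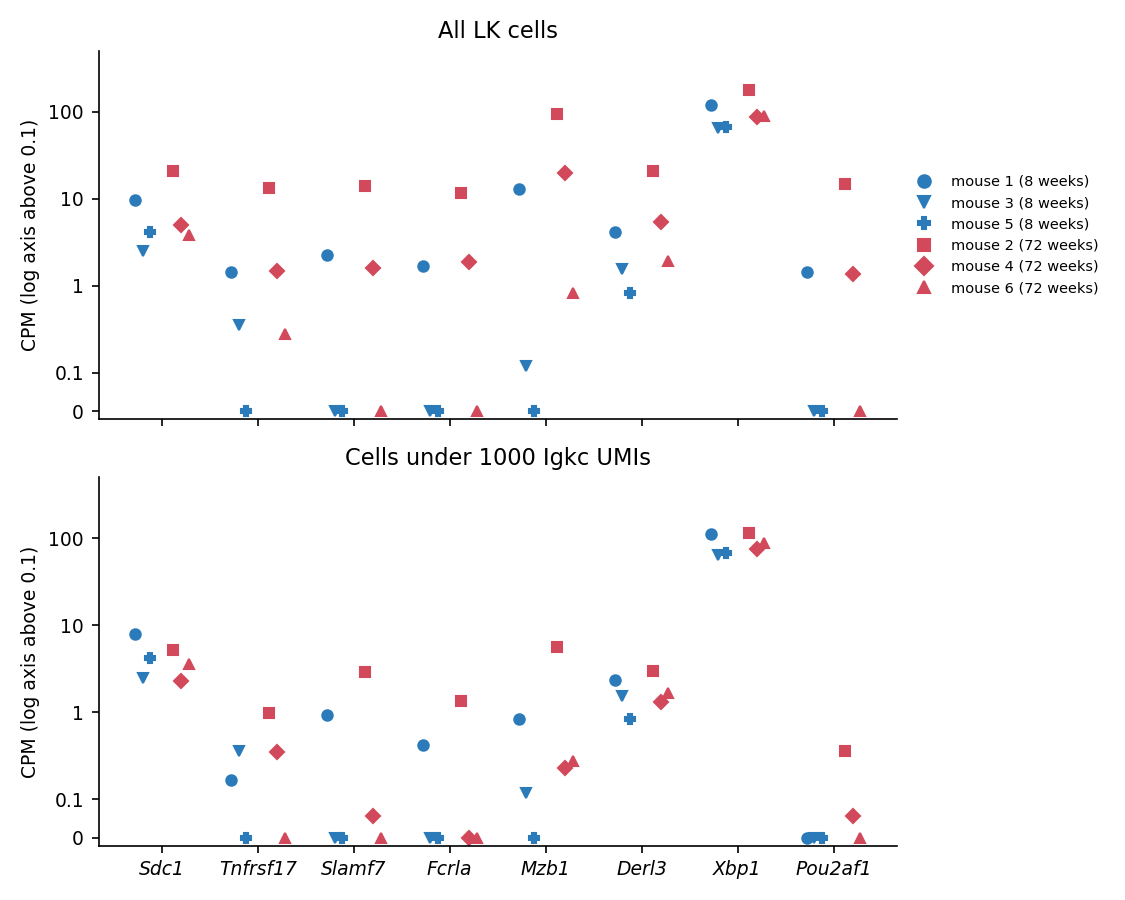
Level of each gene in CPM by mouse (log axis above 0.1 CPM) over all LK cells and over cells under 1000 Igkc UMIs, for young (blue, 8 weeks) and aged (red, 72 weeks) mice. The age groups overlap for every gene in both panels, and mouse 2 has the highest value of every gene over all LK cells.

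Long reads of the same cDNA showed the genes again, without the possibility of separating cells. Before these values, the labels of 4 runs need to be stated. The instrument of a run was inferred from its name. Runs with a second-run mark, which have more reads, were read as Sequel II. Over 4777 genes, deviations of each run from the mean of its instrument were compared with those of the short-read libraries. The 4 numbered Sequel runs, and the Sequel II runs of mice 1 and 2, were closest to the short reads of the same mouse (r = 0.253 to 0.643). The Sequel II runs labelled mice 3, 4, 5 and 6 were instead closest to the short reads of mice 6, 5, 4 and 3 (r = 0.398, 0.429, 0.348 and 0.502), against 0.211, -0.0640, -0.0266 and 0.0549 for their own number. They go against their labels, were not reassigned, and were each closest to a mouse of the other age.

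Xbp1 was the best covered of the 8 with 2823 reads over 12 runs, followed by Sdc1 with 227, Mzb1 with 151, Slamf7 with 56, Derl3 with 55, Fcrla with 48, Pou2af1 with 21 and Tnfrsf17 with 7. Igkc itself had 0 reads counted in any run. The study describes recombined Igkc transcripts in its long reads. The zeros in the counts per gene therefore do not show that Igkc was absent from the reads, and their cause was not tested. Jchain, with 7432 reads, is thus the only mark of the secretory cells given here. In the Sequel II runs of mice 1 and 2, Mzb1 had 12 and 96 reads, Xbp1 471 and 816, Sdc1 45 and 115 and Jchain 528 and 4691. Pou2af1 was read 19 times in mouse 2 and 0 times in mouse 1. These 2 mice had 13 and 90 Igkc-high cells in the short reads. The Sequel II run labelled mouse 5 had 12 Mzb1 and 458 Jchain reads although the short reads of mouse 5 held no Igkc-high cell, and the run labelled mouse 4 had 0 Mzb1 and 131 Jchain reads. On the Sequel, mouse 4 gave 1 Mzb1 and 113 Jchain reads (413 CPM), and mice 3, 5 and 6 gave 0 of Mzb1 and 56.3 to 120 CPM of Jchain.

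With the runs of each mouse summed, Mzb1, Sdc1 and Xbp1 passed the filter and had log2 fold changes of aged over young of 1.82 ± 1.17, 1.03 ± 0.73 and 0.28 ± 0.28. None was called, and neither was any of 9249 genes (0%) in edgeR, where 143 were under 0.05 before adjustment, and the count was also 0 in DESeq2 (70 before adjustment). In mice 3 to 6 each sum joined a Sequel run with a Sequel II run that goes against its label. Those Sequel II runs were closest to mice of the other age, so these 4 sums may mix ages. The fold changes and the absence of calls therefore rest on the labels. Without mouse 2 all 3 values were negative, at -3.67 for Mzb1, -0.59 for Sdc1 and -0.23 for Xbp1. The aged mice are then 4 and 6, whose Sequel II runs go against their labels, as does the run labelled mouse 5 with its 12 Mzb1 reads, so the sign rests on these labels. Leaving out the 4 runs that go against their labels, Xbp1 alone was tested, at 0.49 ± 0.28, and in the Sequel runs alone it had 0.57 ± 0.30.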

How the data were processed

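RNA of LK cells of 6 mice was measured by droplet-based single-cell sequencing and, from the same cDNA, by long reads. For the short reads the authors deposited a count table of UMIs per gene and cell made with Cell Ranger 3.0.2, and for the long reads a count table of reads per gene and run made with minimap2 and HTSeq over a TALON annotation, both not normalized. From these counts, UMIs were summed per mouse and group of cells after immunoglobulin genes were left out. Sums were compared with edgeR 4.0.16 (filterByExpr, TMM, quasi-likelihood test, Benjamini-Hochberg adjustment over all genes tested, threshold 0.05) in R 4.3.3, with limma 3.58.1 loaded for it. In the comparison of Igkc-high with other cells, mice with at least 5 Igkc-high cells entered and the mouse was a block. Both sums of a mouse come from the same animal, and their deviations from the group means correlated (r = 0.198, 0.235 and 0.337 in mice 1, 2 and 4 over 3172 genes). Ages were compared over mice, as were shares of cells, by two-sided exact permutation tests in scipy 1.17.1.

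Cells were grouped with Seurat 5.3.0 (integration of the 6 libraries, 2000 variable genes, 20 dimensions, resolution 0.8) without 450 genes of the programme, the ER lists, immunoglobulins, mitochondria and ribosomes. A cluster was named from at least 3 detected markers, and no doublet caller was run. Intervals are exact Poisson or Clopper-Pearson at a level of 0.95, floors are 3 counts, and both cover counting error only. Depth per mouse was 3628043 to 17585424 UMIs and 274522 to 1833762 long reads on genes per run. 12 runs were used, of which the 2 labelled by age alone entered no test but that of the Sequel runs alone. The instrument of a run was inferred from its name. Alternatives were DESeq2 1.42.0, filters, Igkc thresholds, each mouse left out, thinning, a coarser grouping, a term for mice 1 and 2, each long-read instrument alone and, chosen after seeing the data, the cells of the plasma cell-like cluster alone and the long reads without the runs that go against their labels. The edgeR fits were also run on simulated counts with known changes, drawn without an effect of the mouse. DESeq2 and the correlation of levels were not run on simulated counts.

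The genes and lists were chosen with earlier results of these data known. Genes named beside the 8 were the 4 most abundant of a list at most, and the 10 closest in level over sums of a class and mouse. Prdm1, Ebf1 and genes of a list at 0 were named after their values were seen. Library suffixes of the barcodes were taken as mouse numbers, and each mouse gave 1 library. Permutation p-values rest on 1 value per mouse. SEs and p-values of edgeR rest on a spread shared across genes and can be far smaller than the spread of a single gene between mice.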

Additional observations from a re-analysis of the deposited data

Results flagged for a closer look

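Some long-read data stood outside the comparisons by mouse above, as the names of the runs give an age but no mouse. These are 1 aged and 1 young Sequel run, and a gene is listed where the run held more than the 3 reads that a count of 0 allows. The aged run passed this for 6 of the 8 genes, with 153 reads of Xbp1, 25 of Mzb1, 11 of Slamf7, 10 of Derl3, 8 of Sdc1 and 8 of Fcrla. The young run passed it for 2, with 65 reads of Xbp1 and 6 of Sdc1. In level the aged run had 84.3 CPM of Mzb1 (95% Poisson interval 54.6 to 124) and the young run 7.18 CPM (0.869 to 25.9). Over 4777 genes, the aged run was closest to the short reads of mouse 2 (r = 0.517) and the young run to those of mouse 1 (r = 0.263). Among the sample titles, only those of mice 1 and 2 on the Sequel have no other run, which points to the same mice. The runs were not assigned to a mouse in any test. Groups of 3 mice were not tested for samples that stand apart.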

How the results depend on the processing

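All 8 genes kept their direction and their call in Igkc-high against other cells under 93 of 93 values of the alternatives, of which the setting with every mouse that held such a cell tested 5 of the 8. The threshold of 300 Igkc UMIs chose the same cells as that of 1000. A limit of 100 Igkc UMIs for the other cells left out 1 cell. These settings could therefore hardly change a call. The 93 values are also no independent support, as the study's marker list and the filter tie most of the 8 genes to these cells. The number of genes called was 1749, 1111 with DESeq2, and from 870 (without mouse 2) over 952 (without mouse 4) to 1825 when single mice were left out. The share of calls that were higher was 45.8%, 56.9% with DESeq2, 33.9% without mouse 2 and 59.1% without mouse 4, and the median log2 fold change of all genes moved from -0.23 to -0.72 with no filter on low counts and to -0.58 without mouse 2. Without the replicate block 1707 genes were called and no call of the 8 changed. By age over all LK cells, 0 genes were called, 12 with DESeq2, 4 with a term for mice 1 and 2, and 0 to 1 with a mouse left out. In cells under 1000 Igkc UMIs these counts were 0, 9, 4 and 0 to 1, and 1 with no filter. In long reads they were 0, and 10 with no filter, Mzb1 among them (1.81, adjusted p 0.00854 in edgeR). The sums behind that call hold the runs that go against their labels.

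Differences by age changed sign when single mice were left out. Over all LK cells Sdc1 ran from -0.30 (without mouse 2) to 1.52. In cells under 1000 Igkc UMIs Derl3 ran from -0.23 (without mouse 2; -0.09 without mouse 5) to 0.60, Sdc1 from -0.88 to 0.055 (without mouse 1), and Xbp1 from -0.063 (without mouse 2; -0.0044 and -0.05 without mice 3 and 5) to 0.37. In long reads Mzb1 ran from -3.67 to 2.39, Sdc1 from -0.59 to 1.77 and Xbp1 from -0.23 to 0.49, with each lowest value without mouse 2, where the sign rests on the labels of the doubted runs. The difference in the share of cells with a gene other than Xbp1 was 1.73 percentage points, -0.0650 after thinning to 1000 UMIs, and -1.15 to 3.44 with a mouse left out. The cause was not tested. The difference in the share of Igkc-high cells was 0.333 to 2.93 points. Of 88 levels by class 84 moved by less than 1 SD with the coarser grouping. Depth limits Pou2af1, Tnfrsf17, Fcrla and Slamf7 most, which held 5 to 44 UMIs in all other cells together.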
